A study of Mus musculus with 6 samples.

Results

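Chemokines are small secreted proteins that direct the movement of leukocytes and progenitor cells through receptors coupled to G proteins, and they are named CC or CXC after the spacing of conserved cysteines. The transcripts of 10 CC and CXC chemokine ligands were read in infarcted mouse hearts with and without a Zeb2 deletion targeted to cardiomyocytes. The 10 genes, Ccl2, Ccl6, Ccl7, Ccl8, Ccl9, Ccl12, Cxcl12, Cxcl14, Cxcl16 and Pf4, were taken by symbol, each matched 1 row of the 38293 genes in the count table, and all 10 passed edgeR's filter on low counts together with 14736 other genes. In the infarcted heart, ligands of CCR2 such as CCL2, CCL7 and CCL12 are known for drawing monocytes out of the blood. CXCL12 acts through CXCR4 and is scavenged by ACKR3, and it is made largely by stromal and endothelial cells. CCL6 and CCL9 are rodent ligands of CCR1 made mainly by myeloid cells, and PF4 is stored in platelet granules and also made by tissue macrophages.

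The samples were heart tissue of 3 WT and 3 Zeb2 cKO mice, adult males on a backcrossed C57BL/6J background, taken 14 days after permanent occlusion of the left anterior descending artery. According to the study's methods the controls are Zeb2 fl/fl mice, so that both groups carry the floxed alleles, and the Zeb2 cKO mice also carry a Cre recombinase driven by the Myh6 promoter, which is active in cardiomyocytes. Zeb2 is therefore not targeted in macrophages, fibroblasts and endothelial cells, and the RNA came from all cells of the tissue. The labels place the tissue at the border of the infarct, and the remote zone is named in the methods. The comparison asks whether chemokine transcripts in the tissue differ when cardiomyocytes lack Zeb2, a transcription factor known mainly as a repressor.

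Total counts lay between 37288174 and 51136331 per library, of which between 14301225 and 19024394 fell outside the 37 mitochondrially encoded genes. The unit of all levels is CPM, the number of reads of a gene per M reads of a library size normalised by TMM in edgeR. Cardiomyocyte markers were abundant in every library. WT replicate 2 stood apart from the other 5 libraries. Its summed level of 12 cardiomyocyte markers was 36926 CPM, against 57977 to 70568 CPM in the others. Its summed level of 12 fibroblast markers was 10904 CPM, against 2258 to 2855 CPM, and that of 18 macrophage and monocyte markers was 1002 CPM, against 262 to 355 CPM. In WT replicate 2, Ttn gave 22884 CPM of the cardiomyocyte sum, Col3a1 4872 CPM of the fibroblast sum and Lyz2 419 CPM of the macrophage sum. This library was the lowest for 11 of the 12 cardiomyocyte markers and the highest for all 12 fibroblast markers. The log2 fold changes and medians that follow are therefore given with and without this library. Zeb2 itself overlapped between the groups, with 61.3, 116.05 and 71.9 CPM in WT against 59.6, 72.6 and 66.5 CPM in Zeb2 cKO replicates. The log2 fold change of Zeb2, always given as Zeb2 cKO over WT, was -0.33 with all libraries (standard error 0.25) and -0.0058 without WT replicate 2. A loss of Zeb2 in the Zeb2 cKO hearts was thus not apparent in these counts from whole tissue. The paper reports the loss from cardiomyocytes by qPCR and immunofluorescence.

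No chemokine ligand separated the genotypes. After Benjamini-Hochberg adjustment of edgeR's quasi-likelihood test, 0 of the 10 ligands had an adjusted p under 0.05, beside 0% of the 14746 genes tested, and the adjusted p-values ran from 0.957 to 0.999. An unadjusted p under 0.05 was reached by 0 of the 10 ligands and by 1.90% of all tested genes. In 0 of the 10 did all libraries of one genotype lie above those of the other, against 6.36% of all tested genes. DESeq2 called 0 of the 10 at an adjusted p under 0.05, with a lowest adjusted p of 0.995, and it left 0 of them below 0.05 before adjustment. Between mice of a group, the common biological coefficient of variation was 0.243. For 1 gene, 3 mice against 3 cannot give a two-sided exact permutation p under 0.1.

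**Figure D1:**
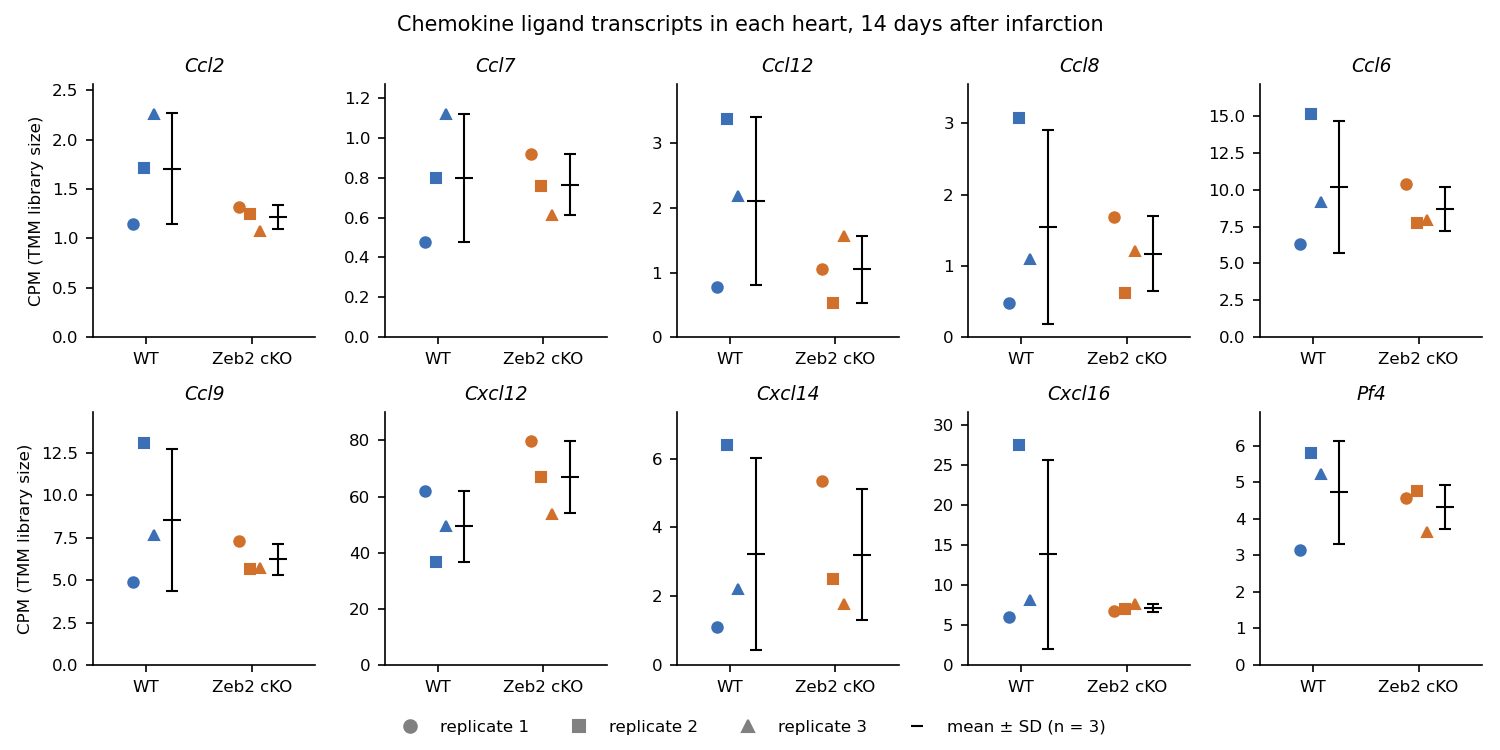
CPM (y axis, starting at 0, a scale for each gene) of the 10 ligands in the WT and Zeb2 cKO libraries, with a marker shape for each replicate number and the mean ± SD (n = 3) beside the points. WT replicate 2 (blue square) is the highest of the 6 libraries for 7 of the ligands, and the groups overlap for all 10.

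The genes for Ccl2, Ccl7, Ccl12 and Ccl8 lie in this order on the plus strand of chromosome 11 (GRCm38), from 82035571 at the start of Ccl2 to 82116799 at the end of Ccl8. CCL2, also called MCP-1, is the main attractant of Ly6C-high monocytes. Ccl2 (ENSMUSG00000035385) was at 1.14, 1.71 and 2.27 CPM in WT hearts and at 1.32, 1.24 and 1.08 CPM in Zeb2 cKO hearts, in the order of replicates 1, 2 and 3, as for all genes that follow. The group means were 1.71 ± 0.562 and 1.21 ± 0.123 CPM (SD, n = 3 each). WT replicates 2 and 3 lay above all Zeb2 cKO libraries, and WT replicate 1 lay among them. Its log2 fold change was -0.49 (standard error 0.28, two-sided exact permutation p = 0.3) and also -0.49 without WT replicate 2, which was near the mean of the other WT libraries for this gene. Without WT replicate 3, its highest library, it was -0.23. These levels rest on 43 to 87 reads per library, and the counting error alone gives a 95% exact Poisson interval of 0.826 to 1.54 CPM for WT replicate 1 and 1.81 to 2.79 CPM for WT replicate 3. Such intervals cover counting error only.

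CCL7, or MCP-3, is a second CCR2 ligand whose gene starts 10.1 kb downstream of the start of Ccl2. Ccl7 (ENSMUSG00000035373) was the scarcest of the 10, with 18, 35 and 43 reads in the WT and 46, 33 and 33 reads in the Zeb2 cKO replicates. This corresponds to 0.478, 0.798 and 1.12 CPM in WT and 0.919, 0.761 and 0.614 CPM in Zeb2 cKO hearts. All 3 Zeb2 cKO values lay inside the WT range. The log2 fold change was -0.064 (standard error 0.35, two-sided exact permutation p = 1.0) and -0.063 without WT replicate 2, and it was 0.25 without WT replicate 3.

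CCL12, or MCP-5, is a CCR2 ligand of rodents. Ccl12 (ENSMUSG00000035352) was at 0.770, 3.37 and 2.19 CPM in WT and at 1.06, 0.530 and 1.56 CPM in Zeb2 cKO replicates, with means of 2.11 ± 1.30 and 1.05 ± 0.517 CPM (SD, n = 3 each). WT replicates 2 and 3 were above all Zeb2 cKO libraries, while WT replicate 1 was below 2 of them. Ccl12 had the most negative log2 fold change of the 10 ligands, -1.0, with a standard error of 0.58 (two-sided exact permutation p = 0.3). It was -0.47 (standard error 0.53) without WT replicate 2. The means lay less than 1 WT SD apart.

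CCL8, or MCP-2, a further member of the monocyte chemoattractant group, is encoded 13.3 kb downstream of the start of Ccl12. Ccl8 (ENSMUSG00000009185) was at 0.478, 3.08 and 1.09 CPM in WT and at 1.68, 0.622 and 1.21 CPM in Zeb2 cKO replicates. It spread most of the 10 ligands, with 6.44-fold between the lowest and the highest library, both of them WT. Reads numbered 18 in the lowest and 135 in the highest library, and the 95% exact Poisson intervals were 0.283 to 0.755 CPM and 2.58 to 3.64 CPM. The log2 fold change was -0.41 (standard error 0.67, two-sided exact permutation p = 1.0), and without WT replicate 2 its sign was the opposite, 0.58 (standard error 0.49). The spread between WT mice thus exceeded the difference between genotypes for this gene.

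Ccl9 and Ccl6 are neighbours on the minus strand of chromosome 11, at 83572919 to 83578636 and 83587882 to 83593087. The lower coordinate of Ccl9, which is the end of this minus-strand gene, lies 1537 kb from the start of Ccl2. Ccl6 (ENSMUSG00000018927) was at 6.29, 15.1 and 9.14 CPM in WT and, across Zeb2 cKO hearts, at 10.4, 7.72 and 7.95 CPM (10.2 ± 4.50 and 8.69 ± 1.48, SD, n = 3 each). Ccl9 (ENSMUSG00000019122) was at 4.91, 13.1 and 7.63 CPM and at 7.29, 5.67 and 5.69 CPM in the same order (8.55 ± 4.17 and 6.22 ± 0.931, SD, n = 3 each). Both were highest in WT replicate 2 and lowest in WT replicate 1, and all Zeb2 cKO libraries lay between these. The log2 fold change of Ccl6 was -0.23 (standard error 0.31) with all libraries and 0.17 without WT replicate 2. That of Ccl9 was -0.46 (standard error 0.34) and -0.0084. The two-sided exact permutation test gave p = 0.8 for Ccl6 and 0.6 for Ccl9.

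CXCL12, or SDF-1, holds CXCR4-bearing cells in place and is a survival and angiogenic signal. Its gene (ENSMUSG00000061353) lies on the plus strand of chromosome 6 from 117168535 to 117181367. Cxcl12 had the most reads of the 10, at 61.9, 36.7 and 49.4 CPM in WT and at 79.6, 67.0 and 53.9 CPM in Zeb2 cKO replicates. The means were 49.3 ± 12.6 and 66.9 ± 12.8 CPM (SD, n = 3 each). Zeb2 cKO replicates 1 and 2 lay above all WT libraries, whereas Zeb2 cKO replicate 3 lay below WT replicate 1. Cxcl12 was alone among the ligands in being lowest in WT replicate 2, as were 34.6% of all tested genes. The log2 fold change was 0.44 (standard error 0.23, edgeR p = 0.0995 before and 0.957 after adjustment, two-sided exact permutation p = 0.2), with the smallest unadjusted p of the 10 ligands. It was 0.27 (standard error 0.18) without WT replicate 2.

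CXCL14 is a conserved chemokine of epithelia and fibroblasts. Cxcl14 (ENSMUSG00000021508; minus strand of chromosome 13, 56288643 to 56296551) was at 1.09, 6.38 and 2.21 CPM in WT and at 5.36, 2.49 and 1.77 CPM in Zeb2 cKO replicates. WT replicate 2 and Zeb2 cKO replicate 1 stood above the other 4 libraries. The means were 3.23 ± 2.79 and 3.20 ± 1.90 CPM (SD, n = 3 each), and the log2 fold change was -0.017 with a wide standard error of 0.68 (two-sided exact permutation p = 0.9). Without WT replicate 2 it was 0.96 (standard error 0.51). The level in WT replicate 2 was 3.86 times the mean of the other WT libraries.

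CXCL16 is made as a membrane protein that binds CXCR6 and is shed by ADAM10 and ADAM17. Cxcl16 (ENSMUSG00000018920; minus strand of chromosome 11, 70453983 to 70459984) was at 6.03, 27.4 and 8.07 CPM in WT and at 6.73, 6.96 and 7.67 CPM in Zeb2 cKO replicates. A single library, WT replicate 2, lay 3.89-fold above the mean of the other WT libraries, and the remaining 5 lay within 6.03 to 8.07 CPM. The log2 fold change was -0.96 (standard error 0.54, two-sided exact permutation p = 0.6) with this library and 0.018 (standard error 0.15) without it. Of the longest Cxcl16 transcript, 20.5% lies in sequence shared with Zmynd15 on the opposite strand, which was at 1.44 to 2.30 CPM. The strand setting of the counting was not given in the sources used here, so a part of these reads cannot be assigned with certainty.

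PF4, or CXCL4, is released by activated platelets. Pf4 (ENSMUSG00000029373; plus strand of chromosome 5, 90772435 to 90773383) varied least among the 10, at 3.13, 5.81 and 5.23 CPM in WT and 4.58, 4.77 and 3.63 CPM in Zeb2 cKO replicates. The highest library was 1.85-fold above the lowest, and the Zeb2 cKO libraries lay inside the WT range. Its log2 fold change was -0.13 (standard error 0.25, two-sided exact permutation p = 0.8), and 0.049 without WT replicate 2. Of 12 platelet and megakaryocyte markers, 4 passed the filter on low counts, and the summed level of all 12 was 4.22 to 6.61 CPM in WT and 4.93 to 7.15 CPM in Zeb2 cKO libraries. Among those 4, Tubb1 had a log2 fold change of 1.02, Itga2b of 0.45 and Ppbp, the neighbouring platelet chemokine gene, of 0.35, and 0 passed an adjusted p of 0.05. Without WT replicate 2, Tubb1, Itga2b and Ppbp were at 1.05, 0.28 and 0.76. Itgb3, the remaining marker that passed the filter, was at -0.054 with all libraries and 0.17 without WT replicate 2.

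Set side by side, 6 of the 10 ligands lay under a log2 fold change of -0.2, as did 22.6% of all tested genes, and Cxcl12 was the 1 ligand over 0.2, as were 15.9% of genes. The median log2 fold change was -0.32 over the ligands and -0.0069 over all tested genes. Without WT replicate 2 the medians were 0.033 and 0.0025. In that comparison of 2 WT with 3 Zeb2 cKO libraries, 2 ligands (Ccl2 and Ccl12) lay under -0.2, beside 11.7% of the 14966 genes tested, and 3 (Ccl8, Cxcl12 and Cxcl14) lay over 0.2, beside 14.2%. At an unadjusted p under 0.05 there were 0 ligands and 2.63% of genes. WT replicate 1 weighed in the other direction. Without it, Ccl2, Ccl9, Ccl12 and Cxcl16 were lower and Cxcl12 was higher in Zeb2 cKO hearts at an unadjusted p between 0.020 and 0.031 (edgeR), with log2 fold changes of -0.71, -0.74, -1.39, -1.32 and 0.64, among 1134 of 15075 genes at that threshold, and the smallest adjusted p of a ligand was 0.596.

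**Figure D2:**
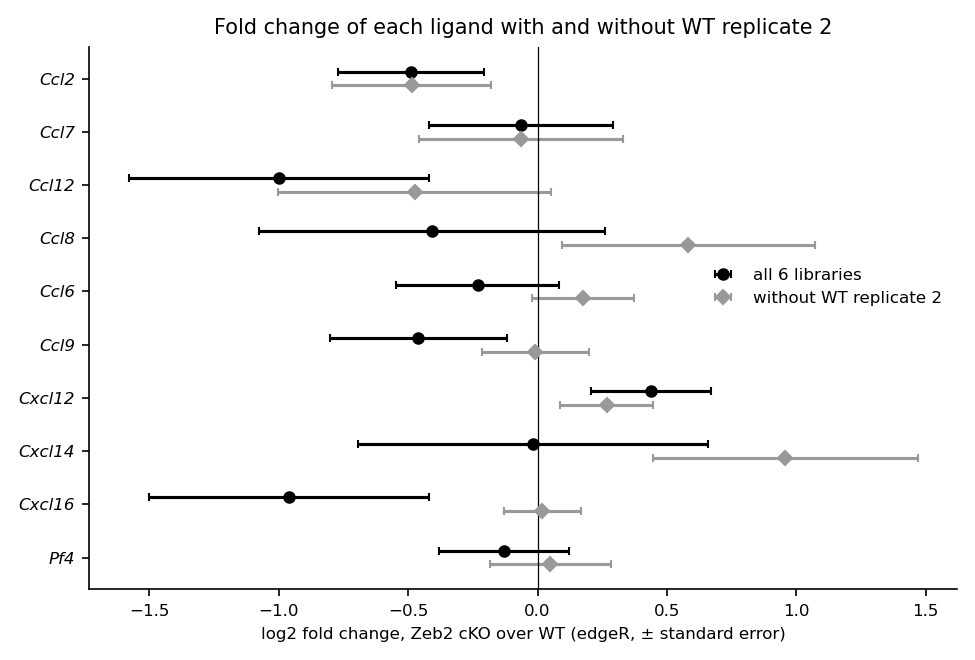
Log2 fold change of each ligand in Zeb2 cKO over WT hearts (x axis) with its standard error from edgeR, for all 6 libraries (black circles) and without WT replicate 2 (grey diamonds). Leaving out this library takes Cxcl16 from -0.96 to 0.018 and Ccl8 from -0.41 to 0.58, whereas Ccl2 and Ccl7 stay where they were.

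The SD of log2 CPM was larger in WT than in Zeb2 cKO libraries for all 10 ligands, and for 71.3% of all tested genes. Without WT replicate 2 it was larger in WT for 8 ligands, all but Cxcl12 and Cxcl14, and for 41.2% of all tested genes. Cxcl16 had the widest contrast, with an SD of 1.16 in WT and 0.097 in Zeb2 cKO hearts, and for Ccl9 these were 0.70 and 0.21. In 7 ligands (Ccl6, Ccl7, Ccl8, Ccl9, Cxcl14, Cxcl16 and Pf4) every Zeb2 cKO library lay inside the WT range, as in 32.9% of all tested genes. WT replicate 2 was the highest library for 7 ligands (Ccl6, Ccl8, Ccl9, Ccl12, Cxcl14, Cxcl16 and Pf4), against 35.2% of all tested genes, and WT replicate 1 was the lowest for 7. The share of all tested genes that were lowest in WT replicate 1 was not counted. The level in WT replicate 2 over the mean of the other WT libraries was 3.91-fold for Ccl8, 2.28-fold for Ccl12, 2.09-fold for Ccl9, 1.96-fold for Ccl6 and 1.39-fold for Pf4. For Ccl2 and Ccl7 it was 1.00 and 0.998, and for Cxcl12 it was 0.659.

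Compared per kb of annotated exon, where transcripts of different genes can be ranked, the ligands fell between 7.11 CPM per kb for Cxcl12 and 0.976 CPM per kb for Ccl7 (means of 6 libraries). After Cxcl12 came Pf4 with 6.28, Ccl6 with 5.26, Cxcl16 with 3.47, Ccl12 with 2.94, Ccl8 with 2.66, Ccl9 with 2.42, Cxcl14 with 1.76 and Ccl2 with 1.28 CPM per kb. Neighbours in this order were compared by the mean and SD of their log2 ratio across libraries. The mean exceeded the SD for Pf4 over Ccl6, Ccl6 over Cxcl16, Ccl9 over Cxcl14 and Ccl2 over Ccl7. These pairs kept this order in 5, 5, 5 and 6 of the 6 libraries. The mean lay within the SD for Cxcl12 and Pf4, Cxcl16 and Ccl12, Ccl12 and Ccl8, Ccl8 and Ccl9, and Cxcl14 and Ccl2. Cxcl12 ranked at the top in all 3 Zeb2 cKO libraries and in WT replicate 1, at position 2 in WT replicate 3 and at position 6 in WT replicate 2. The exons of all Cxcl12 transcripts together span 8176 bases, the longest of the 10, and those of Ccl8 span 511 bases.

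The mix of ligands in WT replicate 2 was unlike that of the other libraries. The summed level was 23.6, 52.6 and 34.4 CPM per kb in WT and 37, 28.9 and 28.4 CPM per kb in Zeb2 cKO replicates. Cxcl12 made up 32.1%, 8.52% and 17.6% of this sum in WT and 26.3%, 28.4% and 23.2% in Zeb2 cKO hearts. Cxcl16 reached 202% of the Cxcl12 level per kb in WT replicate 2, against 22.9% to 44.2% in the other 5 libraries. The share of Cxcl12 thus spanned a narrower range in Zeb2 cKO than in WT libraries.

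**Figure D3:**
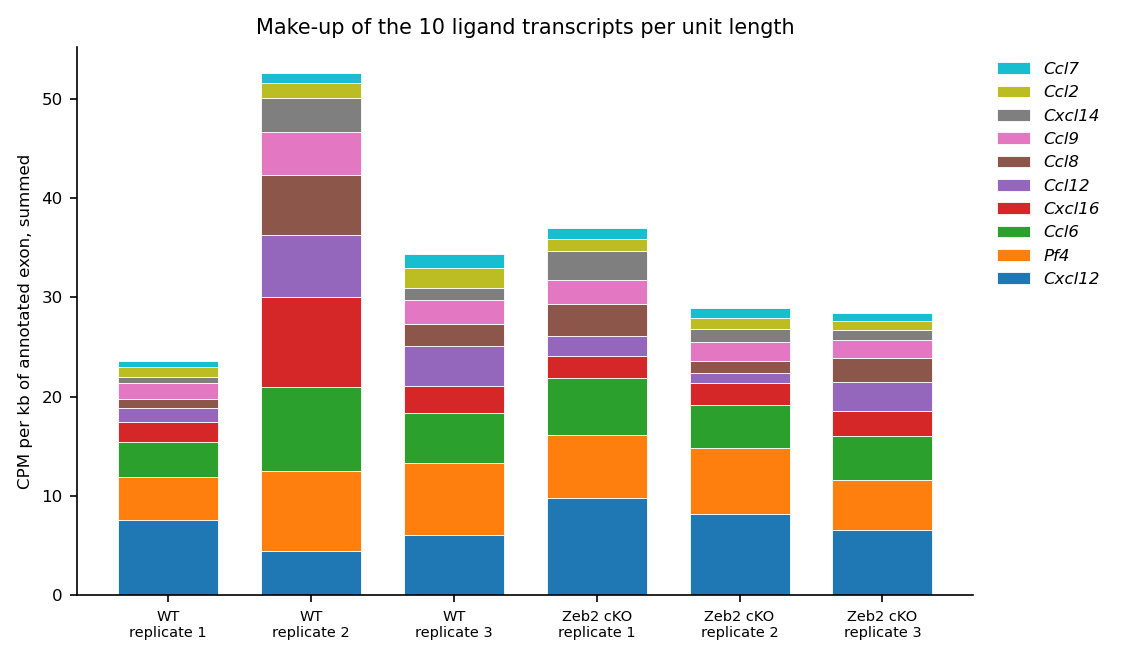
Summed CPM per kb of annotated exon (y axis) of the 10 ligands in each of the 6 libraries, stacked by gene. WT replicate 2 has the tallest bar, 52.6 CPM per kb, with the smallest Cxcl12 segment, 4.48 CPM per kb, and the largest Cxcl16 segment, 9.07 CPM per kb.

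Macrophages and monocytes make many of these ligands, and most of their markers were also highest in WT replicate 2. Of 18 markers 17 passed the filter, Ly6c2 being the exception, and none of the 18 was at 0 throughout. WT replicate 2 was the highest library for 15 of the 17, and 15 had a log2 fold change under -0.2, with a median of -0.82 that became 0.00071 without WT replicate 2. None passed an adjusted p of 0.05, and Tyrobp, Adgre1 and Cx3cr1 had the smallest p, with log2 fold changes of -1.13, -0.98 and -1.16 that were -0.0052, -0.048 and -0.058 without WT replicate 2. Cd163 went the other way and was lowest in WT replicate 2, at 1.62 CPM against 5.83 to 8.34 CPM elsewhere. Its log2 fold change was 0.42, and -0.0043 without WT replicate 2. The mean log2 level of the markers, relative to its own mean over the libraries, was -0.47, 1.217 and -0.087 in WT and -0.31, -0.12 and -0.22 in Zeb2 cKO replicates. In RNA from whole tissue, fewer cells of a type and less RNA per cell cannot be told apart.

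Each ligand was then set against the mean of the 17 markers on the log2 scale. On that scale Cxcl16 remained highest in WT replicate 2, at 0.41 relative to its mean over the libraries against -0.22 to 0.014 elsewhere, while Ccl6, Ccl8, Ccl9, Ccl12, Cxcl14 and Pf4 were no longer highest there. Ccl2, Ccl7 and Cxcl12 were at -0.95, -1.14 and -1.84 in WT replicate 2, their lowest values. This library was also the lowest for Ccl6, Ccl9 and Pf4, at -0.48, -0.31 and -0.83. The difference between the group means, Zeb2 cKO minus WT, was 0.89 for Cxcl12, 0.64 for Cxcl14, 0.44 for Ccl7, 0.35 for Pf4, 0.32 for Ccl8, 0.29 for Ccl6, 0.086 for Ccl9, 0.010 for Ccl2, -0.19 for Cxcl16 and -0.43 for Ccl12, and the groups overlapped for each. Without WT replicate 2 it was 0.19 for Cxcl12, 0.80 for Cxcl14, -0.026 for Ccl7, 0.022 for Pf4, 0.49 for Ccl8, 0.12 for Ccl6, -0.049 for Ccl9, -0.46 for Ccl2, -0.034 for Cxcl16 and -0.48 for Ccl12. The SD of Cxcl12 on this scale was 1.26 in WT and 0.33 in Zeb2 cKO hearts. The part of the macrophage, fibroblast and cardiomyocyte markers in the ligand levels was not tested.

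Markers of other cell types were summed in the same way. Neutrophil markers summed to 1.89 to 5.26 CPM in WT and 1.52 to 2.72 CPM in Zeb2 cKO libraries, and Elane was at 0 counts in all of them. Of 10 neutrophil markers 3 passed the filter, Csf3r, S100a9 and S100a8, with log2 fold changes of -0.73, -0.90 and -0.78. Without WT replicate 2 these were 0.0078, -0.89 and -0.97. Lymphocyte markers summed to 1.64 to 5.72 CPM in WT and 1.41 to 2.53 CPM in Zeb2 cKO libraries, endothelial markers to 634 to 877 and 771 to 953 CPM, and pericyte and smooth muscle markers to 708 to 1065 and 965 to 1071 CPM. Adipocyte markers summed to 130 to 187 CPM in WT and 175 to 230 CPM in Zeb2 cKO libraries, of which Fabp4, also an endothelial marker, gave 125 to 215 CPM. The 4 adipocyte markers that passed the filter all had a log2 fold change over 0.2, with a median of 0.89 and 0.63 without WT replicate 2. Of these, Adig had 1.83 (unadjusted p = 0.0028 from edgeR), with groups that did not overlap and at most 0.400 CPM, and Cfd and Cidea had 1.28 and 0.51. The values of Adig, Cfd and Cidea without WT replicate 2 were 1.70, 0.97 and 0.29. Fabp4 went from 0.22 to 0.083 without this library, and Cidec and Pck1, which then also passed the filter, were at 2.11 and -0.28. Adipoq, Plin1, Cidec and Retn, under the filter with all libraries, also had every Zeb2 cKO library above every WT library. Their levels were at most 0.500 CPM. In none of these lists did a gene pass an adjusted p of 0.05, and among the 12 fibroblast markers, all highest in WT replicate 2, the median log2 fold change was -0.93 with this library and 0.14 without it.

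Receptors of the ligands were read next. All 10 genes of that list had at least 1 count and 6 passed the filter. Cxcr4, the signalling receptor of CXCL12, was at 7.89, 9.39 and 7.47 CPM in WT and at 6.30, 7.14 and 6.16 CPM in Zeb2 cKO replicates, so that every Zeb2 cKO library lay below every WT library. The fold change on the log2 scale was -0.34 (standard error 0.14, unadjusted p = 0.047 from edgeR, adjusted p = 0.957) and -0.23 without WT replicate 2. Groups without overlap were found in 6.36% of all tested genes, and an unadjusted p under 0.05 in 1.90%. Ackr3, the scavenging receptor of CXCL12, was at 18.6, 15.4 and 17.1 CPM in WT and 16.5, 16.0 and 13.2 CPM in Zeb2 cKO replicates, and these overlapped (log2 fold change -0.16, standard error 0.14, and -0.23 without WT replicate 2).

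Ccr2, whose product binds CCL2, CCL7 and CCL12 and marks infiltrating monocytes, was at 4.91, 31.8 and 9.04 CPM in WT and at 7.81, 7.37 and 7.74 CPM in Zeb2 cKO replicates. For Ccr2 the log2 fold change was -1.0 (standard error 0.62), and 0.14 without WT replicate 2, the library in which it was highest. Ccr1, a receptor of CCL6, CCL7 and CCL9, was at 1.78, 5.42 and 3.83 CPM and at 2.22, 2.37 and 2.83 CPM, with a log2 fold change of -0.57, and -0.18 without WT replicate 2. The scavenger receptor Ackr2 was at 1.99, 3.92 and 2.47 CPM and at 1.82, 2.26 and 2.66 CPM, with a log2 fold change of -0.32 that was 0.013 without WT replicate 2. Receptors under the filter were Cxcr6, the receptor of CXCL16, at 0.115 to 1.41 CPM and again highest in WT replicate 2, Cxcr3 at 0.037 to 0.615 CPM, Ackr1 at 0.027 to 0.296 CPM and Ccr3 at 0 to 0.046 CPM. For Cxcr3 too, every Zeb2 cKO library (0.037 to 0.069 CPM) lay below every WT library (0.080 to 0.615 CPM). These Cxcr3 levels rest on 2 to 27 reads per library.

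**Figure D4:**
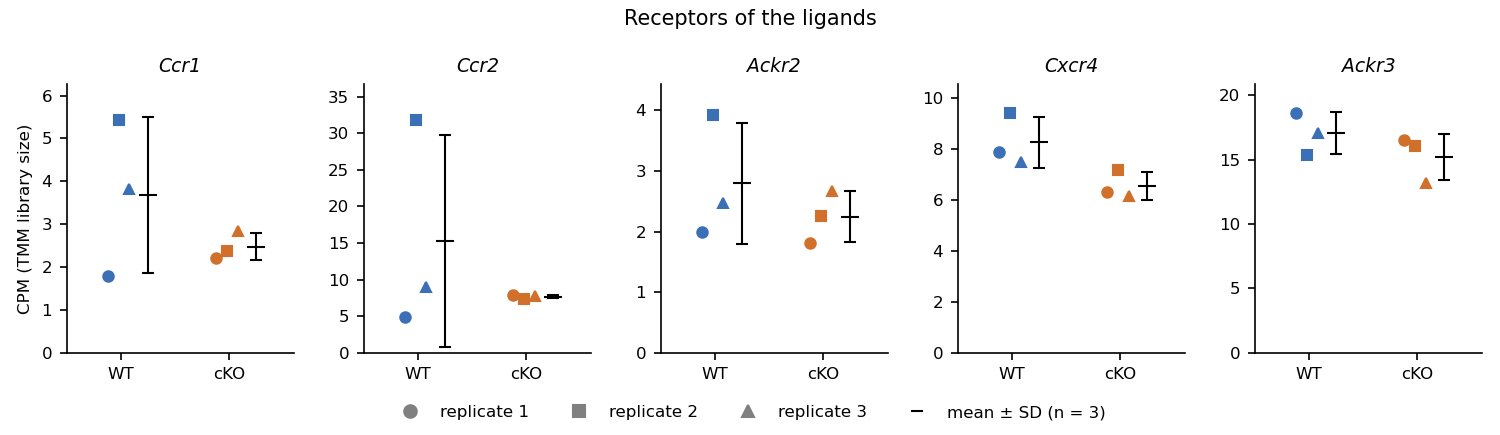
CPM (y axis, starting at 0, a scale for each gene) of 5 receptors of these ligands that passed the filter, in WT and Zeb2 cKO (cKO) libraries, with the mean ± SD (n = 3) beside the points. Of these 5, Cxcr4 is the receptor whose groups do not overlap, and Ccr2 has WT replicate 2 far above the other libraries, at 31.8 CPM.

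The remaining genes of the pathway gave no call. Among all 24 chemokine receptors 9 passed the filter, of which 7 lay under -0.2 in log2 fold change and 0 over 0.2, with a median of -0.57 that was -0.14 without WT replicate 2. Besides Cxcr4, the smallest p belonged to Ackr4 (log2 fold change -0.57, and -0.40 without WT replicate 2) and Cx3cr1 (-1.16 and -0.058). Of 17 other CC ligands 5 passed, 2 under -0.2 and 2 over 0.2, with a median of -0.19 with and without WT replicate 2. Ccl24 and Ccl11, both attractants of eosinophils, had log2 fold changes of 0.72 and 1.18, and Ccl21a had -1.44, where its whole transcript is shared with near-identical copies and its counts are uncertain. These became 0.59, 0.94 and -0.37 without WT replicate 2. Ccl11 was at 1.54, 0.48 and 0.17 CPM in Zeb2 cKO replicates, against 0.21 to 0.44 CPM in WT, so that its rise rested on Zeb2 cKO replicate 1. Of 13 other CXC, CX3C and XC ligands 6 passed, 4 under -0.2 and 1 over 0.2, with a median of -0.44 that was 0.048 without WT replicate 2. Cxcl5, Cxcl10 and Cx3cl1 had log2 fold changes of -1.42, -0.95 and -0.57, and of 0.40, -0.33 and 0.11 without WT replicate 2.

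All 22 genes of chemokine processing and signalling passed the filter, 12 with a log2 fold change under -0.2 and 2 over 0.2. Their median was -0.26 with all libraries and 0.0099 without WT replicate 2. Mmp12, the macrophage elastase that cleaves chemokines, was at 6.21, 37.9 and 2.99 CPM in WT and 4.20, 1.2 and 2.36 CPM in Zeb2 cKO replicates, with a log2 fold change of -2.60 (unadjusted p = 0.032 from edgeR) and -0.82 without WT replicate 2. Pik3cg, the lipid kinase downstream of chemokine receptors, had -0.96 and Sdc4, a heparan sulfate carrier of chemokines, had -0.54, which were -0.13 and -0.14 without this library. Of 20 inducers of inflammatory chemokines 15 passed, 9 under -0.2 and 1 over 0.2, with a median of -0.25 and -0.0028 without WT replicate 2. Il6 had a log2 fold change of -1.50 (unadjusted p = 0.048 from edgeR), Nfkbia, the inhibitor of NF-kappaB, had -0.31 and Irf5 had -0.70, and without WT replicate 2 these were -0.57, -0.28 and -0.058. None of these genes passed an adjusted p of 0.05.

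The ligands were also compared by their profiles over the 6 libraries, each as log2 CPM relative to its own mean. Ccl6 and Ccl9, whose lower coordinates are 15.0 kb apart, were nearest, with a root mean square difference of 0.112. Ccl7 and Pf4 were each other's nearest at 0.210, and so were Ccl8 and Cxcl14 at 0.457. Ccl2 was nearest to Ccl7 at 0.234, Cxcl16 to Ccl9 at 0.367, Ccl12 to Ccl8 at 0.532 and Cxcl12 to Ccl7 at 0.538. The most distant pair was Ccl12 and Cxcl12 at 1.18. The mean profile of the 10 ligands was -0.60, 0.73 and 0.17 in WT and 0.18, -0.29 and -0.19 in Zeb2 cKO replicates. Among 14736 other genes, those nearest to it were Fut4 at 0.0944, Impg2 at 0.0945 and Tnfsf13b at 0.104, with at most 1.16 CPM in any library (Fut4 in WT replicate 2). The profiles share the same 6 libraries and are given as a description.

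**Figure D5:**
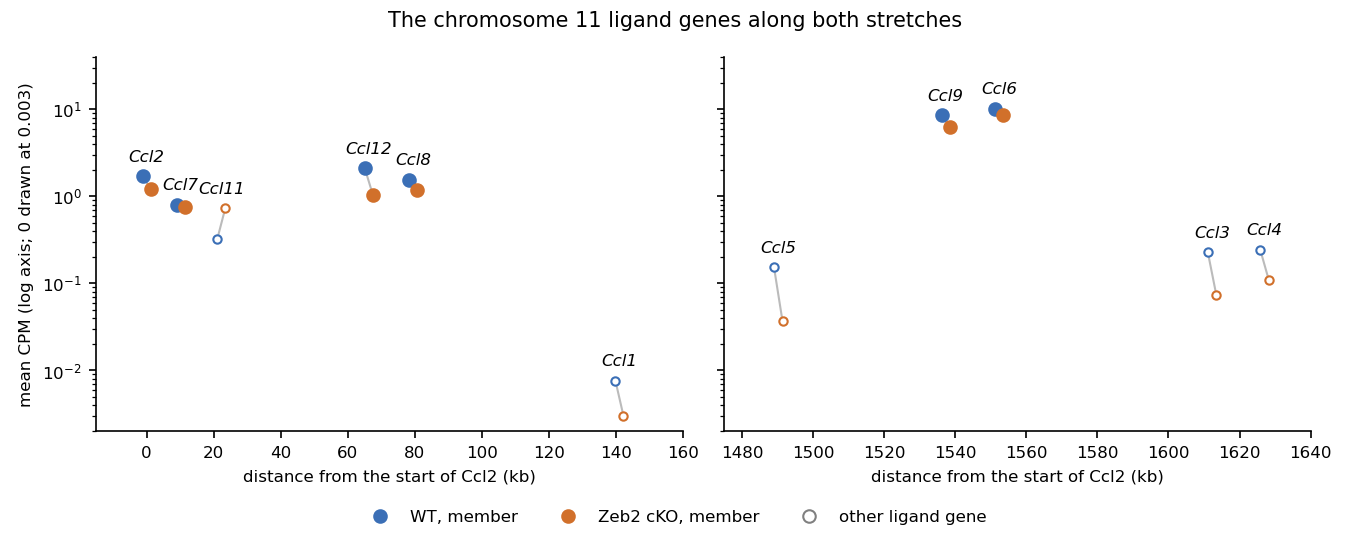
Mean CPM (y axis, log scale, with 0 drawn at 0.003) of the CC ligand genes against the distance of their lower coordinates from the start of Ccl2 (x axis, kb, in separate stretches), with WT in blue, Zeb2 cKO in orange and each pair of points set slightly apart. Filled circles are 6 of the 10 ligands and open circles their neighbours, of which Ccl1, Ccl3, Ccl4 and Ccl5 lie below 0.25 CPM in both groups.

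The genes between and beside the 6 CC ligands of chromosome 11 were low. Ccl11, which lies between Ccl7 and Ccl12, was at mean levels of 0.322 CPM in WT and 0.730 CPM in Zeb2 cKO hearts, where replicate 1 was at 1.54 CPM. Ccl1 was at 0.0076 and 0 CPM, and Ccl5, Ccl3 and Ccl4, which flank Ccl9 and Ccl6, were at 0.154, 0.229 and 0.245 CPM in WT and 0.037, 0.074 and 0.110 CPM in Zeb2 cKO hearts. None of these but Ccl11 passed the filter on low counts.

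Promoter windows of 250 bases before the start were found in RefSeq (GRCm38.p6) for 7 of the 10 ligands, Ccl6, Ccl8, Ccl9, Ccl12, Cxcl12, Cxcl14 and Pf4. Those of Ccl6 and Ccl9, the neighbours with the nearest profiles, of Ccl8 and Ccl12, neighbours in the other stretch, and of Cxcl12, from whose profile Ccl12 was most distant, are shown for comparison. Capitals mark TATAAA (the TATA box) and CACCT (the core of the E-boxes that ZEB proteins bind) on either strand, and where matches overlap the capitals run on.
Ccl12 promoter, chr11:82101595-82101844, plus strand: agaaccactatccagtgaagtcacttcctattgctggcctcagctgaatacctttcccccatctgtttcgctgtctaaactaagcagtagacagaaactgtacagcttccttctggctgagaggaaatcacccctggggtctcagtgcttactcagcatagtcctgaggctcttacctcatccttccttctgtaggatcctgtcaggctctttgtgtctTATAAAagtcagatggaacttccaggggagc
Ccl8 promoter, chr11:82114935-82115184, plus strand: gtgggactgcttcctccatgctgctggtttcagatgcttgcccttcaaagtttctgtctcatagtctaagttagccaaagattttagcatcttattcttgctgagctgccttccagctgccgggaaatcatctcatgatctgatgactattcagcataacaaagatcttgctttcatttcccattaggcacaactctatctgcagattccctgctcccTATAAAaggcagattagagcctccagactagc
Ccl9 promoter, chr11:83578637-83578886, minus strand: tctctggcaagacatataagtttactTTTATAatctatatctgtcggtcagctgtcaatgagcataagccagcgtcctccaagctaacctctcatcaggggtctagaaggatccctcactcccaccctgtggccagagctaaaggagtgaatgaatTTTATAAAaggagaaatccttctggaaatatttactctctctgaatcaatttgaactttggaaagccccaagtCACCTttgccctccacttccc
Ccl6 promoter, chr11:83593088-83593337, minus strand: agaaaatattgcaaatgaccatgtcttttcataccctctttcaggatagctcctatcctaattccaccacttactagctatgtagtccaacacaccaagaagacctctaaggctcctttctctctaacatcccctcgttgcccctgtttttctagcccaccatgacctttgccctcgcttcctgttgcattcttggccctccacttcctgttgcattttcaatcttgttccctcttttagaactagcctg
Cxcl12 promoter, chr6:117168285-117168534, plus strand: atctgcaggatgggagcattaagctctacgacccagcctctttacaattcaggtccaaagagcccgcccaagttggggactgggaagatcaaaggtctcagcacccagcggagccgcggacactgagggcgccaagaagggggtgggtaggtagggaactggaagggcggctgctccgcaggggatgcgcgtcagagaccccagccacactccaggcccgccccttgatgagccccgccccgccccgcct
TATAAA was found in 3 of the 7 windows, against 12.4% of 32851 windows of the same length. It began 31 bases before the start of Ccl12 and 32 bases before that of Ccl8, and in Ccl9 it began at 224, 94 and 92 bases, the last 2 of which overlap. CACCT was found in 1 of the 7 windows, Ccl9 at 21 bases, against 46.0% of all windows. CACCTG, which contains CACCT, was found in 0 of the 7, against 17.2%. The aligned windows of Ccl12 and Ccl8 were identical at 64.4% of positions, the highest of all pairs, those of Ccl6 and Ccl9 at 58.4%, and the other 19 pairs at 53.6% to 62%. The G and C content was 64.4% for Cxcl12 and 59.6% for Cxcl14, above the median of 52.4% over all windows, and between 41.2% and 48.4% for Pf4 and the CC ligands. A match is a description of the sequence and not evidence of binding.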

How the data were processed

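The authors deposited a table of raw counts per gene for 3 WT and 3 Zeb2 cKO hearts. Per the study's methods, stranded libraries without ribosomal RNA were sequenced as short single-end reads, and the STAR workflow counted them on Gencode M4 (GRCm38). The STAR version, the treatment of reads with several positions and the strand setting are not given in the sources used here. The study's own differential test, DESeq, was not used. Gene identifiers were matched to Gencode M21 symbols (36429 of 38293 genes).

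Counts were normalised with TMM and tested with edgeR 4.0.16 (R 4.3.3) by its quasi-likelihood functions (glmQLFit, glmQLFTest) on genotype alone, after filterByExpr, over 14746 genes with Benjamini-Hochberg adjustment and a prior count of 0.125. DESeq2 1.42.0 was an alternative. Single genes were compared with two-sided exact permutation tests of mean log2 CPM. Intervals are 95% exact Poisson. Shared sequence was searched with BLAST 2.17.0. The steps were tested on simulated data. Alternatives covered normalisation, filter, tool, dispersion, prior count, mitochondrially encoded genes, a replicate block and leaving out each library.

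The ligands and gene lists were chosen with earlier results of these data known. The 10 ligands and the counted genes of their receptor list were named, except 1 receptor that is counted with the list and not reported here, and of each other list at most the 3 genes with the smallest unadjusted p, then the 3 genes nearest to the mean ligand profile, the nearest ligand of each ligand, and Zeb2. Mmp12, Ccr2 and the other named list members follow this rule, while genes flanking the CC ligands, Zmynd15, Elane, Fabp4 and Ly6c2 were named outside it after their values were seen. Replicate numbers occur in both groups, but the mice differ and the correlations of same-numbered deviations were 0.088, -0.14 and -0.087, so numbers do not pair the samples. The labels number the samples as replicates without naming animals, and p-values measure the spread between these samples.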

Additional observations from a re-analysis of the deposited data

How the results depend on the processing

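The number of ligands at an adjusted p under 0.05 was 0 under every alternative run, including DESeq2. The number of all genes at that threshold was 0 with edgeR in every setting and 1 with DESeq2 (Slc46a2, log2 fold change 4.20, adjusted p = 0.0382), and at an unadjusted p under 0.05 it ran from 122 without Zeb2 cKO replicate 1 to 1134 without WT replicate 1, with 280 in the fit of all libraries, 600 without a filter on low counts and 429 with DESeq2. Size factors by RLE, the filters, robust dispersions, the prior count and leaving out mitochondrially encoded genes kept the direction of all ligands but Cxcl14, which was 0.0046 without a filter on low counts.

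With a replicate block the log2 fold change of Cxcl14 was 0.12 and the median of the 10 ligands was -0.15, while 0 genes had an adjusted p under 0.05 and 247 an unadjusted one. The block changed the direction of no other ligand. Same-numbered mice shared only a number.

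Leaving out 1 library at a time gave a median log2 fold change of the ligands between -0.59 (without WT replicate 1) and 0.033 (without WT replicate 2). The range was -0.48 to 0.17 for Ccl6, -0.32 to 0.25 for Ccl7, -0.83 to 0.58 for Ccl8, -0.61 to 0.96 for Cxcl14, -1.32 to 0.018 for Cxcl16 and -0.35 to 0.049 for Pf4, each with a change of sign. Ccl2 (-0.71 to -0.23), Ccl9 (-0.74 to -0.0084), Ccl12 (-1.40 to -0.47) and Cxcl12 (0.27 to 0.64) kept their sign. Levels relative to the macrophage marker mean and SDs without WT replicate 2 were added after seeing the data. The cause was not tested. Depth limits Ccl7 and Ccl8 most, at 18 reads in the lowest library.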
